A study of Mus musculus with 4 samples.

Results

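The 10 genes described here, which build or steer the actin cytoskeleton, were examined in a ChIP-seq experiment on the transcription factor MIZ-1 in mouse spleen B220+ cells. They are the actin nucleators and elongation factors Spire1, Fmnl1, Diaph1, Wasl and Evl, the small GTPases Cdc42 and Rac2, the CDC42 effector kinases Cdc42bpa and Tnk2, and the exchange factor Dock8. These 10 genes were taken from 21938 protein-coding genes of the mm10 annotation. Spire1, Cdc42bpa, Fmnl1, Evl and Tnk2 are named in the study, which chose them on these libraries together with expression data, so their peaks are not independent evidence. The other 5 were added as core parts of the same pathway with earlier results of these data known, so theirs are not independent evidence either. For each gene, every peak near a transcription start site and in the gene body was read from the deposited peak lists of both genotypes.

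The MIZ-1WT cells came from wild-type mice. The MIZ-1DPOZ cells came from MB1-Cre x Miz-1floxPOZ mice, in which Cre under the B lineage promoter Mb1 (Cd79a) removes the POZ domain of MIZ-1 in B cells and leaves a truncated protein. All lines were on a C57BL/6 background and the animals were young adults. Each genotype had 1 ChIP library, made with the MIZ-1 antibody H-190, and 1 input library without antibody, so 4 libraries in all. No replicate was available for any value and no test between genotypes was made. A difference between the lists can come from the genotype or from the library, and these cannot be told apart. Peak lists hold no expression, so the B220+ label could not be checked against marker transcripts, and how many mice were pooled is not given in the sources used here.

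MIZ-1 (Zbtb17) binds DNA through zinc fingers and uses its POZ domain for multimerization and partner binding. New actin filaments arise in several ways. The Arp2/3 complex branches filaments when N-WASP (Wasl) or its relatives are switched on by GTP-bound CDC42, formins such as DIAPH1 and FMNL1 nucleate and elongate straight filaments, and SPIRE proteins line up actin monomers. In B cells, actin remodelling controls the mobility and clustering of the B cell receptor, and loss of DOCK8, an activator of CDC42, causes an immunodeficiency.

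In all, 34209 peaks were called for MIZ-1WT and 78357 for MIZ-1DPOZ. A peak is described here by its summit pileup, the number of overlapping fragments at its highest point, by its fold enrichment over the local background, and by its −log10 q, the strength of the peak call after correction for multiple testing. The strongest peak of a gene is the one with the highest −log10 q, which need not have the highest pileup. Pileups were solved from the fold enrichment and −log10 p of each peak. Over the whole lists the median pileup was 9 fragments (quartiles 8 to 11) in MIZ-1WT and 12 (10 to 16) in MIZ-1DPOZ, so most peaks in both lists rest on few fragments. The most frequent background was 0.86 and 1.35 fragments, and the MIZ-1DPOZ library was estimated to be 1.34 times as deep as the MIZ-1WT library. Summits lay in repeats for 60.4% of MIZ-1WT peaks and 56.0% of MIZ-1DPOZ peaks, where a repeat means that over 50% of the summit window, which reaches 100 bp to either side of the summit, is masked in the genome sequence.

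Of the 10 genes, 9 had a promoter peak in each list, and the same 9 had peaks that overlapped between the lists. Only Rac2 had none. A promoter peak is one that covers at least 1 bp of the window from 2000 bp before to 1000 bp after any annotated start site of the gene. Among all protein-coding genes, 30.9% had a promoter peak in MIZ-1WT, 48.7% in MIZ-1DPOZ and 23.6% had overlapping promoter peaks in both. Since the genes were not drawn at random but chosen with earlier results of these data known, no interval is given for their share.

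The CpG content of the start sites goes with these shares. A start was called CpG-rich when the CpG count in 1001 bp around it was at least 0.6 of the count expected from its C and G content. All 9 genes with a promoter peak had a CpG-rich start, with values from 0.707 (Tnk2) to 1.11 (Cdc42bpa), and Rac2 had the value 0.155. Of all protein-coding genes with a CpG-rich start, 51.7% had a promoter peak in MIZ-1WT, 72.6% in MIZ-1DPOZ and 40.6% had overlapping peaks. Of those with a CpG-poor start, 9.53% had a promoter peak in MIZ-1WT and 24.2% in MIZ-1DPOZ. The part of CpG content in the peaks of these genes was not tested.

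The sequences under the MIZ-1WT summits of the promoters show this composition directly. The lines below give 101 bp centred on the summit for 6 of the genes, read in the direction of the gene from GRCm38 (mm10), with each CpG in capitals. They are shown because they are the letters under the strongest MIZ-1WT peak of each promoter. No sequence is shown for Spire1, Evl and Diaph1. The last line gives the 101 bp before the start site of Rac2, the gene with no peak.
Cdc42bpa, chr1:179960339-179960439, plus strand: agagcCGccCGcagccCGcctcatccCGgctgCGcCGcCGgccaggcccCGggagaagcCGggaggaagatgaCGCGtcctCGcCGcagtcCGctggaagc
Tnk2, chr16:32643899-32643999, plus strand: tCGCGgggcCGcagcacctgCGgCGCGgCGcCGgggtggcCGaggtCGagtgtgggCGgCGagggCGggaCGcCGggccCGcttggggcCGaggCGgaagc
Fmnl1, chr11:103170875-103170975, plus strand: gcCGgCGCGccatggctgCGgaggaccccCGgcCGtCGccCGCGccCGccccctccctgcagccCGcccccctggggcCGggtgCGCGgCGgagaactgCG
Cdc42, chr4:137357264-137357364, minus strand: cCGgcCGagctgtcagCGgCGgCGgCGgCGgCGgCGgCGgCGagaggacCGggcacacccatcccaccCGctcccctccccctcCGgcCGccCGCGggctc
Wasl, chr6:24664335-24664435, minus strand: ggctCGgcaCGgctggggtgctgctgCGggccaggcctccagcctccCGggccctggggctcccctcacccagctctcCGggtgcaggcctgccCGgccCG
Dock8, chr19:24999337-24999437, plus strand: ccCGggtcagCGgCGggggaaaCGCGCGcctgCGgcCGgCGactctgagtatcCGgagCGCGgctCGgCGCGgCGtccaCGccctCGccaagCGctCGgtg
Rac2, chr15:78572784-78572884, minus strand: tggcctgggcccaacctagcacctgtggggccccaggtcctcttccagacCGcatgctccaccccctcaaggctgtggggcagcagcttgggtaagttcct

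These windows hold 7 CpGs in Wasl, 14 in Cdc42bpa, 16 in Fmnl1, 17 in Cdc42, 18 in Tnk2 and 20 in Dock8, against 1 in Rac2. The Rac2 window was not poor in G and C as such, at 65.3%, while the 6 summit windows ran from 76.2% to 85.1%. The Cdc42 window carries a run of CGG triplets, and the Wasl window has the fewest CpGs of the 6 at 80.2% G and C.

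The 11 MIZ-1WT promoter peaks of the 9 genes were small. Their pileups ran from 7 to 12 fragments, their fold enrichments from 3.78 to 6.43 and their −log10 q from 2.26 to 6.28. The 16 MIZ-1DPOZ promoter peaks had 9 to 23 fragments, fold enrichments from 3.31 to 7.67 and −log10 q from 2.11 to 13.7. All 11 MIZ-1WT peaks overlapped a MIZ-1DPOZ peak, whereas 6 of the 16 MIZ-1DPOZ peaks overlapped none in MIZ-1WT. All 11 MIZ-1WT summits and 14 of the 16 MIZ-1DPOZ summits lay within 1000 bp of a start site. The plot of peaks around the start sites shows that peaks of the 2 lists overlap more closely than their summits, which came within 100 bp of each other in 4 of the 9 genes. How often single peaks overlap, or summits come this close, was not counted over all promoter peaks. These counts are therefore not read as particular to these genes.

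**Figure D1:**
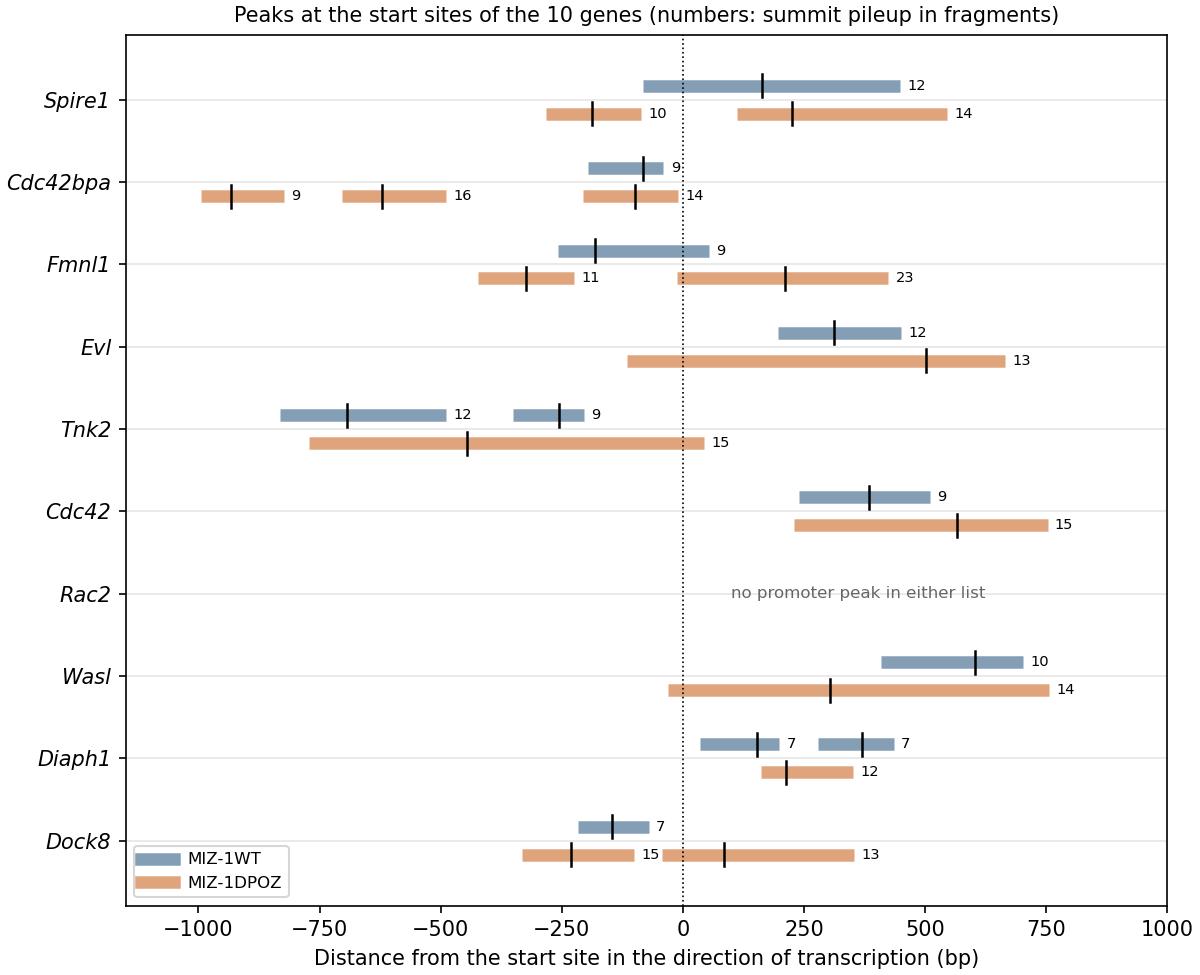
Promoter peaks of the 10 genes along the distance from the start site nearest the strongest MIZ-1WT peak (bp, in the direction of transcription), with MIZ-1WT peaks in blue above MIZ-1DPOZ peaks in orange, summits as black ticks and summit pileups in fragments as numbers. Overlapping peaks are seen in 9 genes, Rac2 has none, and 1 further MIZ-1DPOZ peak each of Spire1 and Tnk2 at an internal start site lies outside the plotted range.

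Among the nucleators, Spire1 had the joint highest MIZ-1WT promoter pileup. SPIRE1 nucleates unbranched filaments and works together with formins. Its MIZ-1WT peak (chr18:67610342-67610873) had 12 fragments, fold enrichment 5.61 and −log10 q 5.15, with the summit 163 bp after the start site in the untranslated region. The overlapping MIZ-1DPOZ peak (chr18:67610245-67610678) had 14 fragments, fold enrichment 5.87 and −log10 q 7.09, and its summit was 63 bp further downstream. Another 2 MIZ-1DPOZ peaks overlapped no MIZ-1WT peak. One (chr18:67610876-67611072) directly adjoined the MIZ-1WT peak, with its summit 187 bp before the start site and 10 fragments. The other lay 1087 bp after an internal start site with 12 fragments and 78.1% of its summit window masked.

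Fmnl1, a formin of blood cells that elongates actin filaments downstream of RAC and CDC42, had the highest promoter pileup of the 10 genes in MIZ-1DPOZ. Its MIZ-1WT peak (chr11:103170849-103171161) had 9 fragments, fold enrichment 5.34 and −log10 q 4.14, with the summit 182 bp before the first start site. In MIZ-1DPOZ the same stretch was covered at both ends by separate peaks. The upstream one (chr11:103170684-103170883) had 11 fragments and −log10 q 3.28, and the downstream one (chr11:103171095-103171531) had 23 fragments, fold enrichment 7.67 and −log10 q 13.7, with its summit 4 bp after the second start site in a coding exon. A pileup of 23 or more was seen in 2.28% of all MIZ-1DPOZ promoter peaks of protein-coding genes. The upstream summit was 141 bp from the MIZ-1WT summit and the stronger downstream summit 392 bp from it.

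Diaph1, the formin mDia1, had weak peaks in MIZ-1WT. Both of them (chr18:37934946-37935101 and chr18:37935182-37935345) had 7 fragments, fold enrichment 4.30 and −log10 q 2.48, with summits 370 bp after the start site in an intron and 153 bp after it in a coding exon. A single MIZ-1DPOZ peak (chr18:37935029-37935220) spanned the gap between them with 12 fragments, fold enrichment 5.54 and −log10 q 5.96. A pileup of 7 is below the lower quartile of 8 of all MIZ-1WT peaks.

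Wasl encodes N-WASP, the widely expressed activator of the Arp2/3 complex that binds CDC42. Its MIZ-1WT peak (chr6:24664285-24664578) had 10 fragments, fold enrichment 5.91 and −log10 q 5.05, with the summit in an intron 603 bp after the start site. The MIZ-1DPOZ peak (chr6:24664232-24665019) was wider and reached the start site, with 14 fragments, fold enrichment 6.38, −log10 q 7.89 and a summit 303 bp after the start. The summits of the 2 lists stood 300 bp apart, so the overlap rests on the width of the MIZ-1DPOZ peak.

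Evl belongs to the Ena/VASP family, which protects growing filament ends from capping. Its MIZ-1WT peak (chr12:108554920-108555174) had 12 fragments, fold enrichment 6.43 and −log10 q 6.28, the highest −log10 q of the 11 MIZ-1WT promoter peaks. The MIZ-1DPOZ peak (chr12:108554608-108555389) had 13 fragments, fold enrichment 5.55 and −log10 q 6.29. The summits lay 312 bp and 502 bp after the start site, and the window also holds the antisense gene Gm16596, so the peaks cannot be assigned to Evl alone.

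Cdc42 itself, the GTPase that switches on WASP proteins, formins and PAK kinases, had 1 promoter peak in each list. The MIZ-1WT peak (chr4:137357189-137357459) had 9 fragments, fold enrichment 5.38 and −log10 q 4.14, and the MIZ-1DPOZ peak (chr4:137356946-137357469) had 15 fragments, fold enrichment 6.71 and −log10 q 8.76. Both summits were in an intron, 385 bp and 566 bp after the start site. No peak of either list lay in the rest of this gene.

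Rac2, the RAC GTPase of blood cells, had neither a promoter peak nor a gene-body peak. The nearest summits were 8.29 kb before its start site in MIZ-1WT (9 fragments) and 8.33 kb before it in MIZ-1DPOZ (14 fragments), at the gene Gm36738 and mostly within repeats. The lists contain called peaks only, so fragments below the calling limit at Rac2 were not analysed here.

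Cdc42bpa encodes MRCKα, a kinase that binds GTP-loaded CDC42 and drives myosin contraction. Its MIZ-1WT peak (chr1:179960276-179960432) had 9 fragments, fold enrichment 5.38 and −log10 q 4.14, with the summit 83 bp before the start site. The matching MIZ-1DPOZ peak (chr1:179960266-179960462) had 14 fragments, fold enrichment 6.39 and −log10 q 7.89, and its summit was 15 bp away, the closest match of the 9 genes. The strongest MIZ-1DPOZ peak of this promoter was another one (chr1:179959768-179959984), 622 bp before the start site, with 16 fragments, fold enrichment 7.24 and −log10 q 9.96. No MIZ-1WT peak overlapped it, nor a further MIZ-1DPOZ peak 933 bp before the start site with 9 fragments. The line below shows the 101 bp at the summit of the MIZ-1DPOZ peak without a partner (GRCm38, plus strand, CpGs in capitals), since it is the largest promoter peak among the 10 genes seen in 1 list only.
Cdc42bpa, chr1:179959800-179959900: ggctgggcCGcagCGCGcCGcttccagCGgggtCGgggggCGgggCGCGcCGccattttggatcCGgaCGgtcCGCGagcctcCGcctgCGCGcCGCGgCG

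That window holds 20 CpGs and is 82.2% G and C, so it is at least as CpG-dense as the 6 MIZ-1WT windows. Its 16 fragments correspond to 11.9 fragments at the depth of the MIZ-1WT library. The same scaling put the 6 MIZ-1DPOZ promoter peaks without a MIZ-1WT partner at 6.71 to 11.9 fragments. Whether sequencing depth accounts for the missing partners was not tested.

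Tnk2 encodes ACK1, a tyrosine kinase that binds CDC42 only in its GTP form. Its stronger MIZ-1WT peak (chr16:32643811-32644154) had 12 fragments, fold enrichment 4.95 and −log10 q 4.27, with the summit 694 bp before the start site. The weaker one (chr16:32644292-32644439) had 9 fragments and −log10 q 2.26, 255 bp before the start site. One broad MIZ-1DPOZ peak (chr16:32643872-32644686) covered both with 15 fragments, fold enrichment 5.94 and −log10 q 7.55, its summit lying between the MIZ-1WT summits. A further MIZ-1DPOZ peak of 9 fragments lay 1955 bp before an internal start site, without a MIZ-1WT counterpart.

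Dock8, the exchange factor that loads CDC42 with GTP in lymphocytes, had 7 fragments in its MIZ-1WT peak (chr19:24999317-24999464), with fold enrichment 4.30, −log10 q 2.48 and the summit 147 bp before the start site. The overlapping MIZ-1DPOZ peak (chr19:24999202-24999433) had 15 fragments, fold enrichment 6.81 and −log10 q 8.91, 230 bp before the start site. A second MIZ-1DPOZ peak (chr19:24999490-24999888) followed 84 bp after the start site with 13 fragments and −log10 q 6.90. This second peak overlapped no MIZ-1WT peak, but it began shortly past the end of the MIZ-1WT peak. The MIZ-1WT peak of Dock8 was thus among the weakest of the 11, while its MIZ-1DPOZ peak ranked behind those of Fmnl1 and Cdc42bpa alone in −log10 q.

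**Figure D2:**
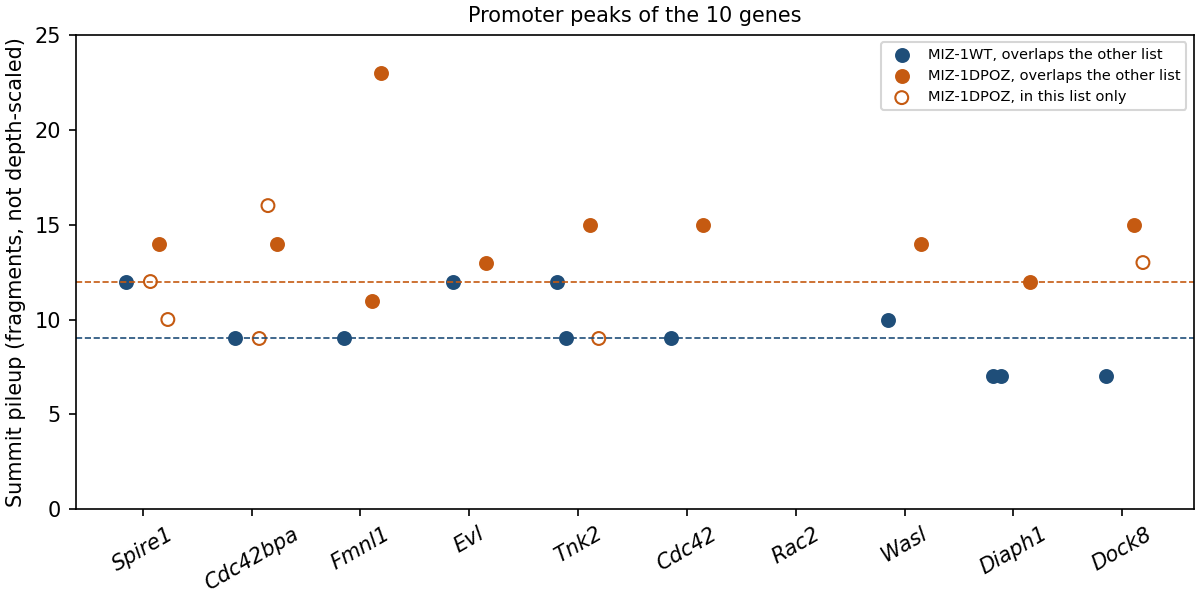
Summit pileup in fragments, not scaled for depth, of each promoter peak of the 10 genes, with MIZ-1WT in blue, MIZ-1DPOZ in orange, and open circles for peaks that overlap none in the other list; dashed lines mark the medians of all promoter peaks of protein-coding genes, 9 and 12. The MIZ-1WT points sit between 7 and 12 and the MIZ-1DPOZ points between 9 and 23, with the downstream Fmnl1 peak at the top.

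At a stricter −log10 q of at least 5, only Spire1, Evl and Wasl kept a promoter peak in MIZ-1WT, 3 of 10 genes, beside 9.78% of all protein-coding genes. In MIZ-1DPOZ all 9 kept one, beside 33.3% of all protein-coding genes. The 2 lists thus gave the same genes at the deposited threshold and different numbers of genes at the stricter one. Over all promoter peaks of protein-coding genes the median pileup was 9 in MIZ-1WT and 12 in MIZ-1DPOZ, so the 9 genes, with medians of 9.0 and 13.5, lay near the middle of both lists.

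Pileups were then compared between genotypes for each pair of overlapping promoter peaks, scaled by the depth ratio of 1.34 and with exact binomial 95% intervals that cover counting error only. Pairs were formed from the strongest overlapping peaks. The ratio of MIZ-1DPOZ over MIZ-1WT was below 1 in Evl (0.808, 0.340 to 1.94), Spire1 (0.870, 0.374 to 2.06) and Tnk2 (0.932, 0.407 to 2.18). It was above 1 in Wasl (1.04, 0.431 to 2.63) and Cdc42bpa (1.16, 0.468 to 3.04). Higher values were found in Cdc42 (1.24, 0.510 to 3.22), Diaph1 (1.28, 0.464 to 3.83), Dock8 (1.60, 0.613 to 4.63) and Fmnl1 (1.91, 0.850 to 4.68). Every one of the 9 intervals includes 1, and their bounds lie over 2 times below and above the value itself. Over all 4778 promoter pairs of protein-coding genes the median ratio was 1.06, with quartiles of 0.835 and 1.31.

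The Fmnl1 value depends on which MIZ-1DPOZ peak is taken. With the pair whose summits lie closest together, a choice added after the values had been seen, the ratio of Fmnl1 was 0.911 (0.343 to 2.49) and that of Tnk2 1.24 (0.510 to 3.22), while the other 7 genes kept their value. The summit distance of the strongest pairs ran from 15 bp in Cdc42bpa to 392 bp in Fmnl1.

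**Figure D3:**
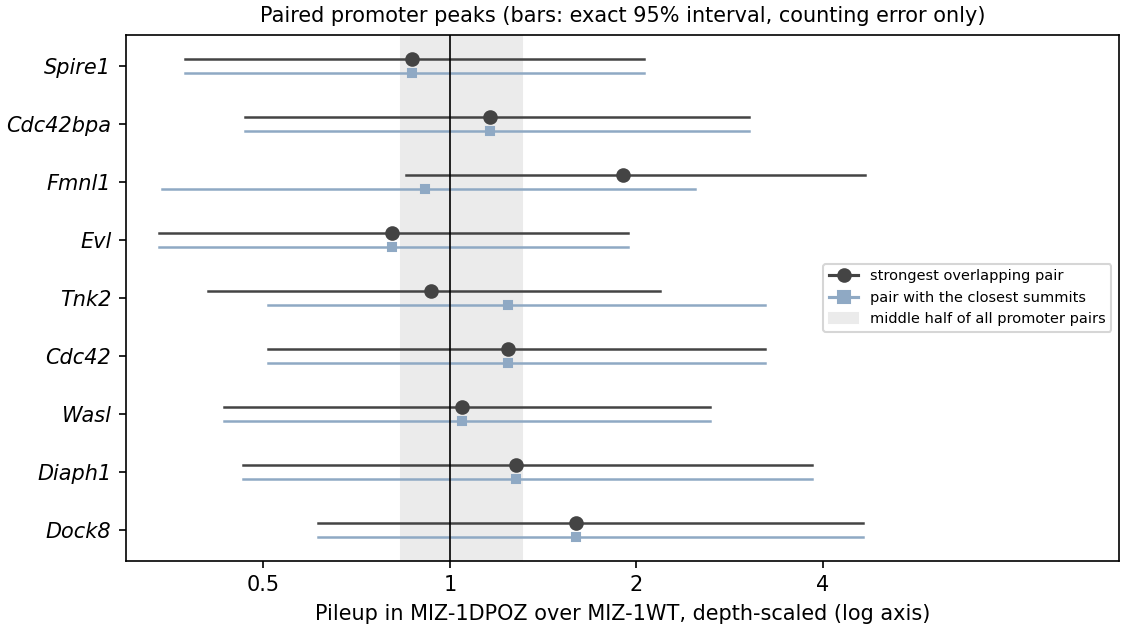
Depth-scaled pileup ratio of MIZ-1DPOZ over MIZ-1WT (log axis) for the paired promoter peaks of 9 genes; dark circles show the strongest overlapping pair, light squares the pair with the closest summits, bars exact 95% intervals for counting error, and the grey band the quartiles of all promoter pairs. All intervals include 1, and Fmnl1 moves from 1.91 to 0.911 between the pairings.

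The base composition around the summits was compared with all promoter peaks of protein-coding genes in the same summit windows. The median G and C content was 79.1% over the 11 MIZ-1WT windows, beside 73.6% over all 7584 promoter peaks of that list, and 76.1% over the 16 MIZ-1DPOZ windows, beside 70.6% over all 13152. The median CpG count was 29 beside 23 in MIZ-1WT and 27 beside 20 in MIZ-1DPOZ. Repeats were rare in both, with 0 of 11 and 1 of 16 summit windows masked by over 50%. Short words were searched on both strands as exact matches. The GC box GGGCGG occurred in 9 of 11 MIZ-1WT windows (65.1% of all promoter windows of that list) and in 9 of 16 MIZ-1DPOZ windows (56.2% of all). ATCGAT, 1 of the motifs reported for MIZ-1, was in none of the 27 windows, and it is in 0.435% and 0.449% of all promoter windows of the lists. The E-box CACGTG of MYC was in none of them either (4.63% and 3.79% of all), and the same held for the ETS word CCGGAAG (5.55% and 4.87%) and the NRF1 word GCGCATGC (1.58% and 1.18%). The CCAAT box was found once, under the downstream Fmnl1 summit of MIZ-1DPOZ (9.28% and 9.91% of all).

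Peaks in the gene bodies differed from the promoter peaks in 2 respects, their overlap and their repeat content. In MIZ-1WT 5 of the 10 genes held 8 gene-body peaks, and in MIZ-1DPOZ 8 genes held 25. With the MIZ-1DPOZ list held to as many peaks as the MIZ-1WT list, by −log10 q, its count was 6, below the 8 of MIZ-1WT, so the direction of this difference turns. Among all protein-coding genes 24.2% had a gene-body peak in MIZ-1WT and 42.8% in MIZ-1DPOZ. Per 100 kb of gene body outside the promoter windows this was 0.892 peaks in MIZ-1WT, beside 1.00 over all protein-coding genes, and 2.79 in MIZ-1DPOZ, beside 2.58. Only 2 of the 8 MIZ-1WT peaks, in Evl and Dock8, overlapped a MIZ-1DPOZ peak. The share of all gene-body peaks that overlap the other list was not counted. This low overlap is therefore not read as particular to these genes. Summits were in repeats in 4 of 8 and 10 of 25 peaks, beside 62.5% and 47.7% of all gene-body peaks.

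The Evl intron peak was the strongest of all peaks in the 10 genes. In MIZ-1WT (chr12:108573470-108573993) it had 15 fragments, fold enrichment 6.95 and −log10 q 8.0. In MIZ-1DPOZ (chr12:108573415-108573955) it had 57 fragments, fold enrichment 12.7 and −log10 q 43.4, with the summit only 6 bp away. The depth-scaled ratio was 2.83 (1.58 to 5.39), the only interval among the pairs of these genes that lies above 1. The summit window is fully masked, and a 32-base word of it occurs in the genome a median of 739.5 times in the MIZ-1WT window and 783 times in the MIZ-1DPOZ window. With that many copies, the position in Evl at which these fragments were placed is uncertain. The MIZ-1DPOZ summit sequence is shown because it is the largest signal assigned to any of these genes (101 bp, GRCm38, plus strand, CpGs in capitals).
Evl intron, chr12:108573695-108573795: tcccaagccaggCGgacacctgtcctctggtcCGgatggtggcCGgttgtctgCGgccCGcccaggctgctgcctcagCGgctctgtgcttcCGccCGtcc

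This repeat window holds 8 CpGs and is 71.3% G and C. The other shared gene-body peak, in a Dock8 intron (chr19:25018297-25018444 in MIZ-1WT, chr19:25018301-25018473 in MIZ-1DPOZ), was of single-copy sequence. It had 8 fragments in MIZ-1WT and 9 in MIZ-1DPOZ, its summits lay 50 bp apart, and its depth-scaled ratio was 0.839 (0.287 to 2.50).

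In Cdc42bpa the strongest gene-body peaks sat on simple repeats. The MIZ-1WT peak (chr1:179999701-179999909) had 12 fragments and −log10 q 7.06 with 60.2% of its window masked, and the MIZ-1DPOZ peak (chr1:179966774-179967044) had 19 fragments, −log10 q 13.3 and 90.0% masked. Dock8 had its strongest MIZ-1DPOZ gene-body peak (chr19:25179792-25180049) on a fully masked repeat, with 18 fragments, −log10 q 12.1 and a median of 651 genomic copies. The summit sequences of these MIZ-1DPOZ peaks are printed to show the repeats (101 bp each, GRCm38, plus strand, no CpG to mark).
Cdc42bpa intron, chr1:179966800-179966900: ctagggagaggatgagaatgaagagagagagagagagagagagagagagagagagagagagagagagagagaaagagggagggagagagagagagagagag
Dock8 intron, chr19:25179865-25179965: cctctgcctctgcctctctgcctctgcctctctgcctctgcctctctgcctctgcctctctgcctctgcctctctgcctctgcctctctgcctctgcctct

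A run of GA dinucleotides fills most of the Cdc42bpa window, and the Dock8 window repeats the letters CTCTGC. All 27 promoter summit windows, by comparison, consisted mostly of single-copy words, with a median of 1 genomic copy each.

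The remaining strongest gene-body peaks were modest and had no partner in the other list. In Spire1 the MIZ-1WT peak (chr18:67606972-67607129) had 11 fragments and −log10 q 4.62, with 67.2% of its summit window masked. In MIZ-1DPOZ 2 Spire1 peaks tied at 11 fragments and −log10 q 5.05, 1 of single-copy sequence (chr18:67546542-67546759) and 1 at the processed pseudogene Gm17669 (chr18:67562670-67562844). Fmnl1 had 3 MIZ-1WT gene-body peaks, the strongest by −log10 q in a coding exon (chr11:103193434-103193594, 13 fragments, −log10 q 6.25), and 1 MIZ-1DPOZ peak (chr11:103192575-103192747, 10 fragments, −log10 q 3.85), these 2 peaks lying within the start window of the antisense gene Gm20511. Tnk2 had 4 peaks in MIZ-1DPOZ only, the strongest by −log10 q (chr16:32668210-32668392, 13 fragments, −log10 q 5.18) in the start window of the antisense gene Tnk2os. Higher pileups with a lower −log10 q were found in a further Fmnl1 peak in MIZ-1WT (14 fragments) and in 2 further Tnk2 peaks (14 and 15 fragments). The Tnk2 peak of 14 fragments had 95.5% of its summit window masked. Wasl and Diaph1 had 1 MIZ-1DPOZ peak each, both in coding exons, with 13 fragments and −log10 q 6.90 (chr6:24619287-24619637) and with 15 fragments and −log10 q 8.91 (chr18:37890662-37891046). The summit window of this Diaph1 peak was 66.7% masked. The antisense genes near Evl, Fmnl1 and Tnk2 mean that a peak there cannot be assigned to 1 of the 2 genes.

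The wider pathway was read from a list of 101 further genes in 7 roles. This list too was chosen with earlier results of these data known, so its shares are not independent evidence. Of these, 69 (68.3%) had a promoter peak in MIZ-1WT, 83 (82.2%) in MIZ-1DPOZ, and 58 (57.4%) had overlapping promoter peaks, beside 30.9%, 48.7% and 23.6% of all protein-coding genes. A further 6 genes had peaks in both lists that did not overlap, 5 had one in MIZ-1WT only, 19 in MIZ-1DPOZ only and 13 in neither. The MIZ-1DPOZ list was also held to as many peaks as the MIZ-1WT list, by −log10 q. It then gave 56 pathway genes with a promoter peak, below the 69 of MIZ-1WT, so the direction of this difference turns. A CpG-rich start was found in 83 of the 101 genes, of which 64 (77.1%) had a MIZ-1WT promoter peak, 76 (91.6%) a MIZ-1DPOZ one and 56 overlapping ones. Over all protein-coding genes with a CpG-rich start these shares were 51.7%, 72.6% and 40.6%. Of the 18 genes with a CpG-poor start, 5 had a MIZ-1WT promoter peak, 7 a MIZ-1DPOZ promoter peak and 8 neither.

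**Figure D4:**
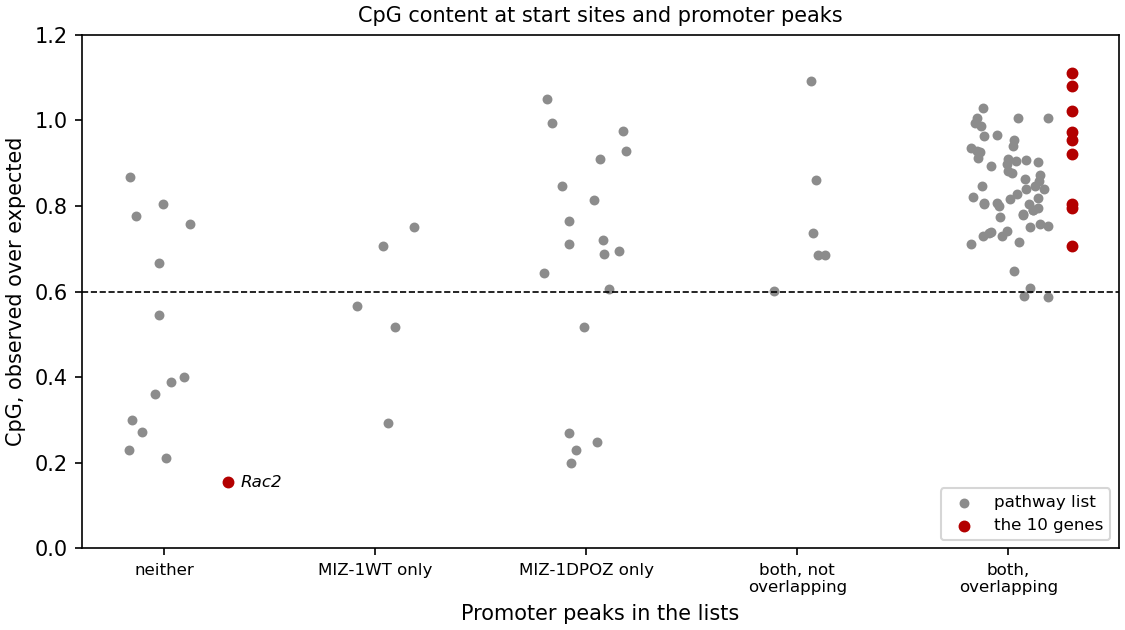
CpG observed over expected at the start site (vertical axis) of the 101 pathway genes (grey) and the 10 genes (red), by promoter peaks in neither list, 1 list or both; the dashed line marks 0.6. Rac2 at 0.155 is in the group without peaks, and the 9 other genes, from 0.707 to 1.11, are in the group with overlapping peaks.

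All 9 subunit genes of the Arp2/3 complex, which nucleates branched filaments, had a MIZ-1DPOZ promoter peak and 6 had an overlapping MIZ-1WT peak. All 9 starts were CpG-rich, and the shares over all such protein-coding genes were 72.6% and 40.6%. Arpc1a, Arpc3 and Arpc4 had peaks in MIZ-1DPOZ only, with 11, 16 and 9 fragments. Actr2, the ARP2 subunit, had the highest −log10 q of the complex in both lists, 6.56 in MIZ-1WT and 7.89 in MIZ-1DPOZ, with 12 and 14 fragments. Among 17 WASP and WAVE activators, 11 had promoter peaks in MIZ-1WT and 15 in MIZ-1DPOZ, and all 11 overlapped. These are 64.7%, 88.2% and 64.7% of the role, in which 14 starts were CpG-rich. Over all protein-coding genes with a CpG-rich start the shares were 51.7%, 72.6% and 40.6%. Brk1, a WAVE complex subunit, led MIZ-1WT with −log10 q 6.03 on a fully masked summit window. Wipf2, which binds WASP proteins, led MIZ-1DPOZ with −log10 q 34.9 and 39 fragments, against 9 fragments in MIZ-1WT. Its MIZ-1DPOZ summit window was 46.3% masked, and genomic copies were not counted for the pathway genes.

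Formins were the group with the fewest shared promoters in proportion, 5 of 12, with 8 genes called in MIZ-1WT and 9 in MIZ-1DPOZ. This overlapping share of 41.7% is near the 40.6% of all protein-coding genes with a CpG-rich start, and above the 23.6% of all protein-coding genes. A CpG-rich start was found in 10 of the 12 formins. Daam1 (12 fragments, −log10 q 7.06) and Fmn1 (11 fragments) had a promoter peak in MIZ-1WT only. Diaph2, Daam2 and Fmn2 had one in MIZ-1DPOZ only, with 13, 12 and 11 fragments, and Fmnl3, a relative of Fmnl1, had the highest −log10 q of the role in MIZ-1DPOZ, 12.1. No difference between roles was tested. Of 6 genes of the Spire, Cobl, Ena/VASP and profilin role, 4 had a MIZ-1WT promoter peak and 6 a MIZ-1DPOZ one, and 3 overlapped. All 6 starts were CpG-rich, and over all such protein-coding genes the shares were 51.7%, 72.6% and 40.6%. Enah and Vasp, the Ena/VASP relatives of Evl, had MIZ-1DPOZ promoter peaks of 17 and 11 fragments and no promoter peak in MIZ-1WT. Pfn2, a profilin, led MIZ-1WT with −log10 q 5.40.

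Among 23 CDC42 and RAC effectors, 16 (69.6%) had a promoter peak in each list and 14 (60.9%) overlapped. A CpG-rich start was found in 19 of them. Over all protein-coding genes with such a start the shares were 51.7% in MIZ-1WT, 72.6% in MIZ-1DPOZ and 40.6% overlapping. The MIZ-1DPOZ share of the effectors was thus slightly below that of all CpG-rich genes. Fnbp1, a membrane-bending CDC42 partner, had the highest −log10 q of the role in MIZ-1WT, 10.9 with 17 fragments, and Cdc42bpg, a relative of Cdc42bpa, had the highest in MIZ-1DPOZ, 10.4 with 17 fragments. Of 24 exchange factors and inhibitors, 17 (70.8%) had a MIZ-1WT promoter peak, 20 (83.3%) a MIZ-1DPOZ one and 14 (58.3%) overlapping ones. A CpG-rich start was found in 18 of the 24. Itsn1, a CDC42 exchange factor, led MIZ-1WT with −log10 q 9.89 and Arhgef7, another exchange factor, led MIZ-1DPOZ with 13.3. Over the 58 pathway pairs the median depth-scaled ratio was 1.06, from 0.447 in Itsn1 to 3.23 in Wipf2, and 32 lay above 1, so the median equals that of all promoter pairs to 2 decimals.

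**Figure D5:**
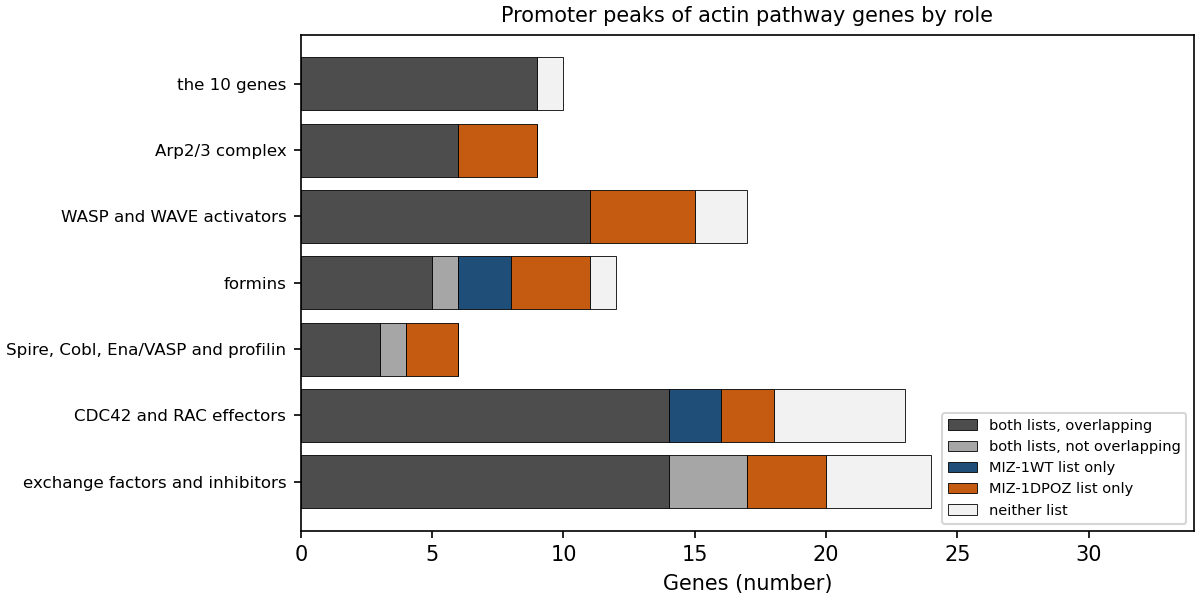
Number of genes (horizontal axis) with promoter peaks in both lists, overlapping or not, in 1 list or in neither, for the 10 genes and 6 roles of the pathway list. The 10 genes split into 9 overlapping and 1 with no peak, and all 9 Arp2/3 genes have a peak in at least the MIZ-1DPOZ list.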

How the data were processed

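ChIP-seq peaks of 2 ChIP libraries, 1 per genotype, were used; the input libraries enter only as the authors' control. The authors made the peaks with MACS2 per library. The study's methods name Trimmomatic, bwa and MACS2, whereas the submitters' processing notes name Bowtie2 2.2.6 and MACS2 2.1.0 with mm10, and the q threshold is not given in the sources used here. The deposited columns are a whole-number score, fold enrichment (ratio to local background), −log10 p and −log10 q, and the summit offset. The integer score was not used. The lowest −log10 q was 1.03 in MIZ-1WT and 1.01 in MIZ-1DPOZ. Peak lists carry no read totals, so depth was taken from the most frequent background divided by the smallest peak width (0.86 over 148 bp, 1.35 over 173 bp), which gave the ratio of 1.34.

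Pileups were solved from fold enrichment and −log10 p under the MACS2 formulas, for 99.97% and 99.99% of peaks within 0.01, and the solver was tested on simulated data. Transcripts were those of the GENCODE vM21 basic annotation, and sequences came from RefSeq GRCm38.p6. Gene-body peaks are those within the gene span that touch no promoter window. Analyses used Python, numpy, pandas and scipy. The named genes are the 10 genes with all promoter peaks and the strongest gene-body peak per list, the pathway gene of highest −log10 q per role and list, and the Arp2/3, formin and Ena/VASP genes called in 1 list. The 10 genes and the pathway list were chosen with earlier results of these data known. Of the 7 roles of that list, 1 is not reported here on its own.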

Additional observations from a re-analysis of the deposited data

How the results depend on the processing

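No paired analysis was possible because only 1 ChIP library exists per genotype, and the result comes from no test. Of 44 recomputed counts, 31 stayed within 1.5 times the reported count. At −log10 q of at least 5, the genes with a MIZ-1WT promoter peak fell from 9 to 3, those with overlapping promoter peaks from 9 to 3, the pathway genes with a MIZ-1WT promoter peak from 69 to 26, and the gene-body peaks from 8 to 4 in MIZ-1WT and from 25 to 10 in MIZ-1DPOZ. At a fold enrichment of at least 5, the genes with a MIZ-1WT promoter peak fell from 9 to 6. Those with overlapping promoter peaks fell from 9 to 6 as well. The pathway genes with a MIZ-1WT promoter peak were then 44, and the gene-body peaks 5 in MIZ-1WT and 9 in MIZ-1DPOZ. Without repeat summits the gene-body peaks were 4 and 15. With the MIZ-1DPOZ list held to as many peaks as the MIZ-1WT list, its gene-body peaks were 6, below the 8 of MIZ-1WT instead of above. Its pathway genes with a promoter peak fell from 83 to 56, within 1.5 times but below the 69 of MIZ-1WT, so this direction turned too. Of the 10 genes, 9 kept a MIZ-1DPOZ promoter peak and 9 kept overlapping ones. Requiring a reciprocal overlap of 50%, or summits within 100 bp, left 4 of the 9 overlapping genes in each case; the reciprocal rule asks for similar widths by construction. All 27 recomputed pileup ratios of the 9 genes stayed inside their own 95% interval. These intervals are wide and most recomputations use the same pair of peaks, so this is no measure of stability. Fmnl1 moved from 1.91 to 0.911 with the closest summits and still lay inside. Scaling by the most frequent background instead of the depth moved Cdc42bpa to 0.992 and Wasl to 0.893, below 1. With 7 to 23 fragments per promoter peak and no replicate, counting error alone leaves each ratio uncertain by over 2 times.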
